A study of Homo sapiens with 16 samples.

Results

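The response to siFOXA1.1, a small interfering RNA (siRNA) against FOXA1, was compared between 2 human bladder cancer cell lines, RT112 (luminal papillary) and SCaBER (basal/squamous). The comparison used 12 of the 16 libraries of the series: 2 libraries of siFOXA1.1, 2 of siControl.1 and 2 of siControl.2 in each line, with the siFOXA1.2 libraries left out. Cells of both lines were transfected with a lipid reagent and 10 nM of siRNA per the labels, siControl.1 and siControl.2 are control siRNAs, and the RNA was read at transcript ends by 3' mRNA sequencing. For each gene, the log2 change under siFOXA1.1 against the mean of both control siRNAs was taken in each line, and the change in SCaBER was subtracted from the change in RT112. A positive difference therefore means a larger rise, or a smaller fall, in RT112. RT112 was grown in RPMI and SCaBER in DMEM, so line and medium cannot be told apart, each line stands for 1 model only, and an effect of FOXA1 loss cannot be told apart here from any other effect of the siFOXA1.1 sequence.

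FOXA1 is a pioneer transcription factor of the forkhead family. It opens chromatin at enhancers and, with GATA3 and PPARG, maintains the luminal programme of the urothelium, whereas basal and squamous bladder cancers express basal keratins and little FOXA1. The interferon response, which FOXA1 has been linked to, works through a transcription factor complex of STAT proteins and IRF9 that binds the interferon-stimulated response element in the promoters of antiviral genes.

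Library totals ranged from 4528513 to 7604581 counts. Levels are given as CPM, that is counts scaled to a common library size after correction by the TMM factor, and a floor of 3 counts per library corresponded to 0.389 to 0.644 CPM and covers counting error alone. As sums, the markers followed the labels of the lines, though single markers did not all do so. The basal keratin gene KRT16 averaged 55.4 CPM in RT112 controls and 29.7 CPM in SCaBER controls, and TP63 13.1 and 15.7 CPM. The 12 luminal markers summed to 1310 to 1772 CPM in the RT112 control libraries and to 176 to 244 CPM in those of SCaBER, and the 12 basal markers to 922 to 1130 CPM in RT112 and 4190 to 6469 CPM in SCaBER. KRT20 and UPK3A, which mark terminal luminal differentiation, were at 0 in the controls of both lines. Of 18 markers of fibroblasts, leukocytes and endothelium, 15 were at or under the floor in every RT112 control library and 12 in every SCaBER control library. LUM, a fibroblast marker, was at 74.9 to 124 CPM in RT112 controls and at 4.72 to 27.2 CPM in SCaBER controls. Mitochondrially encoded genes took 18.0 to 21.2% of the counts in RT112 controls and 25.7 to 28.2% under siFOXA1.1, against 10.3 to 11.4% and 11.9% in SCaBER. The part of this shift in the results below was not tested. The count of genes that differed between the lines was 280 when mitochondrial genes were left out, which is no test of that part.

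FOXA1 itself was measured at 34.9, 29.9, 17.8 and 27.2 CPM in the 4 RT112 control libraries, listed here and below as siControl.1 replicates 1 and 2 and then siControl.2 replicates 1 and 2, and at 1.38 and 3.54 CPM in the 2 siFOXA1.1 libraries. In SCaBER it was at 0.494, 0.601, 2.39 and 1.93 CPM in the controls and at 0 and 0.428 CPM under siFOXA1.1. The groups did not overlap in RT112. In SCaBER the counts were 3 and 4 with siControl.1, 15 and 9 with siControl.2, and 0 and 3 under siFOXA1.1. A control library and a siFOXA1.1 library thus held the same 3 counts, at the floor, and the controls disagreed. In all, SCaBER had 31 counts in 4 control libraries and 3 counts in 2 siFOXA1.1 libraries. The fall in RT112 was -3.45 ± 0.63 on the log2 scale (SE, adjusted p = 0.00111 by edgeR's quasi-likelihood test). In SCaBER the ratio of controls to siFOXA1.1 was 5.30 with an exact counting interval of 1.65 to 27.1. This interval pools the counts of each arm and does not cover the spread between libraries. The test did not pass there (adjusted p = 0.177), and the difference between the lines was -1.34 (95% interval -3.98 to 1.29, adjusted p = 0.729).

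The response differed between the lines at 276 of 14878 genes tested (1.86%; edgeR's quasi-likelihood test, Benjamini-Hochberg adjusted p under 0.05), and 2133 genes had an unadjusted p under 0.05. The change in RT112 was above that in SCaBER at 104 genes (0.699%) and below it at 172 (1.16%). Of 10109 genes measurable in both lines, meaning a mean of at least 20 counts in siFOXA1.1 or siControl of each line, 250 differed (2.47%). The smallest difference called was 0.86 and the median absolute difference of called genes was 1.93 on the log2 scale. The median difference over all measurable genes was -0.04. With batch replicate as a block, 535 genes differed, 275 of them shared with the same sign. The count was 779 without SCaBER siFOXA1.1 replicate 2, 473 without SCaBER siFOXA1.1 replicate 1 and 467 without SCaBER siControl.1 replicate 1, and of the 276 genes 252, 243 and 270 were still called with their sign in these fits. With limma on log2(TPM + 1), which changes the input values and the test together, the median difference was -0.25 and the split was 50 genes above and 212 below. Nothing in the labels says that libraries came from separate cultures, so the spread between libraries may be technical. Each control siRNA has its own mean in the fit. The p-values and SE therefore measure the spread between libraries of the same siRNA in a line. They leave out the gap between siControl.1 and siControl.2, and 169 genes differed with controls pooled into 1 group. In bulk RNA, fewer cells expressing a gene and less of its RNA per cell cannot be told apart.

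Most differences came from the RT112 side. In RT112, siFOXA1.1 raised 1335 genes (8.97%) and lowered 1408 (9.46%). In SCaBER it raised 640 (4.30%) and lowered 574 (3.86%). These within-line changes draw on separate libraries. Of the 276 genes, 161 passed the threshold in RT112 and not in SCaBER, 106 of them having fallen and 55 having risen. The reverse held for 48 genes, of which 33 rose and 15 fell in SCaBER. A further 45 genes moved the same way in both lines, with the larger change in RT112 for 39 and in SCaBER for 6. At 19 genes both lines passed with opposite signs, and 3 genes passed in neither line alone. Of the 762 genes past the threshold in both lines, 743 moved the same way and 698 of these did not pass the test of the difference, which does not show that their changes were equal.

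**Figure D1:**
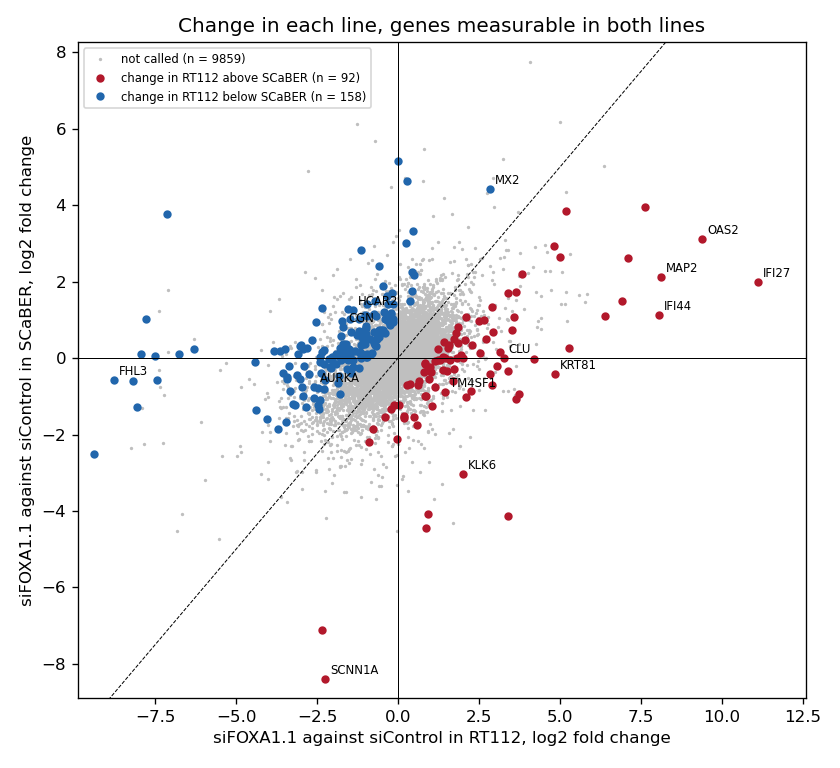
Log2 fold change of siFOXA1.1 against siControl in RT112 (horizontal axis) and SCaBER (vertical axis) for genes measurable in both lines; each point is a gene and the dashed line marks equal change. The 92 genes whose change in RT112 was above that in SCaBER (red) lie right of the line and the 158 below it (blue) lie left. Where an arm is at or near 0 counts, as for IFI27, OAS2, IFI44, FHL3 and SCNN1A, the plotted fold depends on the prior count and is no measured size.

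KRT81, a hair-type keratin, was at 5.65, 10.4, 2.47 and 6.26 CPM in RT112 controls and at 159 and 181 CPM under siFOXA1.1. SCaBER libraries held 1689, 1635, 1257 and 1669 CPM in controls and 1359 and 971 CPM under siFOXA1.1. The RT112 groups were far apart, and the SCaBER groups overlapped. The difference was 5.27 ± 0.37 (SE, adjusted p = 1.92e-06), the lowest p of all genes. KRT81 has close relatives among the hair keratins, so its reads may be shared with them.

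CLU, which encodes the secreted chaperone clusterin, was at 66.6, 68.0, 43.6 and 26.4 CPM in RT112 controls and at 485 and 443 CPM under siFOXA1.1. In SCaBER its control libraries held 151, 149, 121 and 111 CPM and its siFOXA1.1 libraries 155 and 109 CPM. It rose in RT112 by 3.26 ± 0.20 (adjusted p = 2.23e-08) and was at -0.00025 ± 0.20 in SCaBER, which left a difference of 3.26 (95% interval 2.64 to 3.88, adjusted p = 2.37e-05). SAT1, the rate-limiting enzyme of polyamine breakdown, showed the same pattern, with a rise of 2.01 in RT112, -0.01 in SCaBER and a difference of 2.02 ± 0.32 (adjusted p = 0.00312). CLU, SAT1, ABCC5, PRKACB, FERMT1, AMIGO2, HIC2, TOX2, FAM83A, TXNIP and the interferon genes beyond the naming rule were named after their values had been seen.

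MAP2, a microtubule-associated protein best known from neurons, was at 0, 0.153, 2.21 and 0.932 CPM in RT112 controls and at 87.2 and 122 CPM under siFOXA1.1. In SCaBER it went from 19.1, 15.5, 18.5 and 21.5 CPM to 73.7 and 87.4 CPM. It rose in both lines, with no overlap between groups. The difference was 5.99 ± 0.56 (adjusted p = 3.23e-05), with 3 of the 4 RT112 control libraries above 0. Its size rests on RT112 controls near 0 and ranged from 1.91 to 7.96 over the 24 alternatives. NEURL3, a ubiquitin ligase, rose in RT112 from 0.843 to 30.8 CPM on average and stood at 9.49 and 20.4 CPM in SCaBER (difference 5.28 ± 0.79, adjusted p = 0.00251). Its RT112 controls were near 0 too, and the difference ranged from 2.80 to 7.38. SALL4, a stem cell transcription factor, had 2 counts in the RT112 controls and 82 under siFOXA1.1, a ratio of 94.5 (exact counting interval 25.4 to 794), and averaged 7.42 and 20.6 CPM in SCaBER (adjusted p of the difference 0.0345).

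BIRC3, an inhibitor of apoptosis induced by NF-kB, was at 3.41, 4.75, 2.73 and 1.46 CPM in RT112 controls and at 25.8 and 22.5 CPM under siFOXA1.1. SCaBER held 409, 566, 335 and 425 CPM in controls and 320 and 423 CPM under siFOXA1.1, so its groups overlapped while those of RT112 did not. The difference was 3.25 ± 0.33 (adjusted p = 6.72e-05). SAA1, an acute phase protein whose reads may be shared with SAA2, rose from 0.696 to 6.2 CPM in RT112 and averaged 431 and 334 CPM in SCaBER (difference 3.74 ± 0.61, adjusted p = 0.00462). The chemokine gene CCL22 rose from 1.73 to 19.5 CPM in RT112 and averaged 4.03 and 1.89 CPM in SCaBER (difference 4.74 ± 1.05, adjusted p = 0.0279). Among 25 chemokines and cytokines tested, CCL22 was the 1 that differed (4%, against 1.86% of all genes). Among 30 NF-kB targets 2 were above and 1 below (10%). The last was NFKBIZ, a nuclear regulator of NF-kB, which fell in RT112 (-1.08 ± 0.22) and not in SCaBER (0.38 ± 0.20; adjusted p of the difference 0.0175).

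TGFBI, a matrix protein induced by TGF-beta, was at 63.4, 59.1, 60.5 and 63.5 CPM in RT112 controls and at 164 and 190 CPM under siFOXA1.1. The SCaBER libraries were at 548, 499, 330 and 395 CPM in controls and at 318 and 366 CPM under siFOXA1.1. The RT112 controls lay within a narrow band far below both siFOXA1.1 libraries, while the SCaBER groups overlapped (difference 1.87 ± 0.22, adjusted p = 0.000363). THBS1, thrombospondin 1, rose by 1.82 in RT112 and was at -0.00090 in SCaBER, and TIMP2, an inhibitor of matrix metalloproteinases, rose by 1.42 in RT112 against 0.41 in SCaBER (adjusted p of the differences 0.00462 and 0.0383). FN1, fibronectin, went the other way: it rose in SCaBER by 1.43 ± 0.22 and was at -0.32 ± 0.23 in RT112 (adjusted p of the difference 0.0101). Of 34 mesenchymal genes tested, 3 differed upwards in RT112 and 1 downwards (11.8% against 1.86% of all genes), and the median difference of the 20 measurable members was 0.80, beside -0.04 for all measurable genes. The call for TIMP2 was lost under 9 of 24 alternatives and that for THBS1 under 4.

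**Figure D2:**
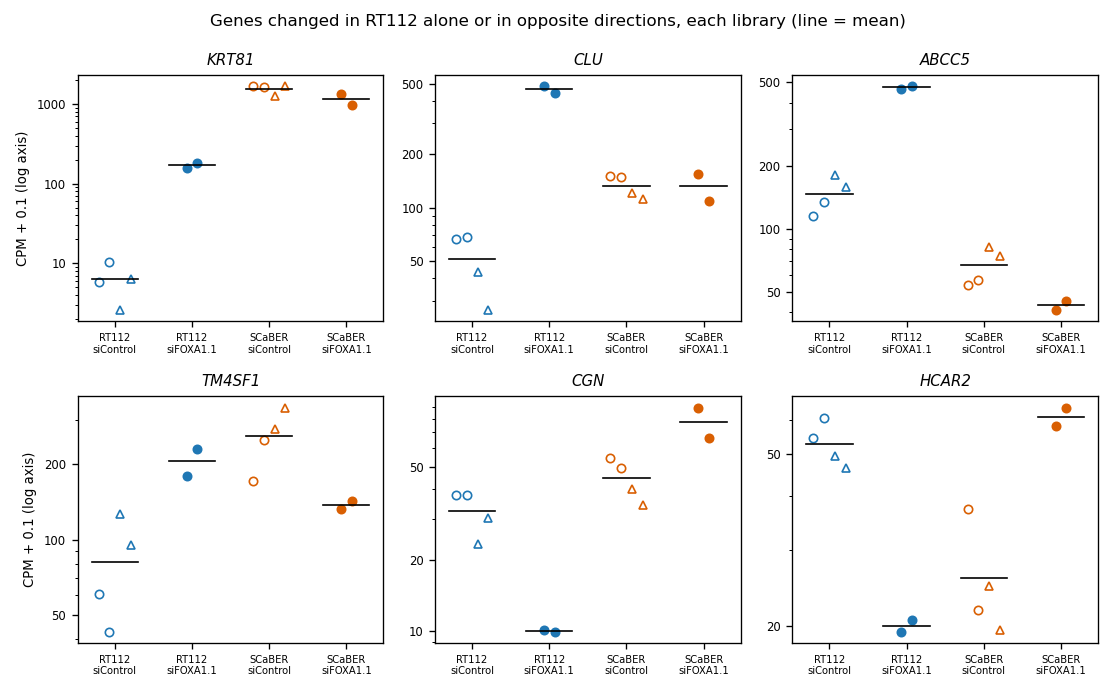
Level of 6 genes in each of the 12 libraries, as CPM + 0.1 on a log axis, for siControl (open; circles siControl.1, triangles siControl.2) and siFOXA1.1 (filled) in RT112 (blue) and SCaBER (orange), with the horizontal line at the mean of each arm. KRT81 and CLU rose in RT112 with overlapping groups in SCaBER, ABCC5 and TM4SF1 rose in RT112 and fell in SCaBER, and CGN and HCAR2 fell in RT112 and rose in SCaBER.

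Most genes that rose more in RT112 had the lower control level there. Of 74 measurable genes that rose in RT112 by more than in SCaBER, 59 (79.7%) had the higher control level in SCaBER, against 49.5% of all measurable genes and 61.1% of all 1220 measurable genes that rose in RT112. The median log2 ratio of RT112 to SCaBER (pseudocount 0.5 CPM) was -2.19 in the controls and -0.35 under siFOXA1.1. The lines were closer to each other under siFOXA1.1 at 46 of the 74 genes (62.2%, against 42.6% of all measurable genes). The genes that fell in RT112 by more than in SCaBER showed no such start: 63 of 124 (50.8%) were higher in SCaBER controls, and the median ratio went from -0.04 to -1.91. Since the same control libraries give the starting level and the change, these counts are a description with no test.

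**Figure D3:**
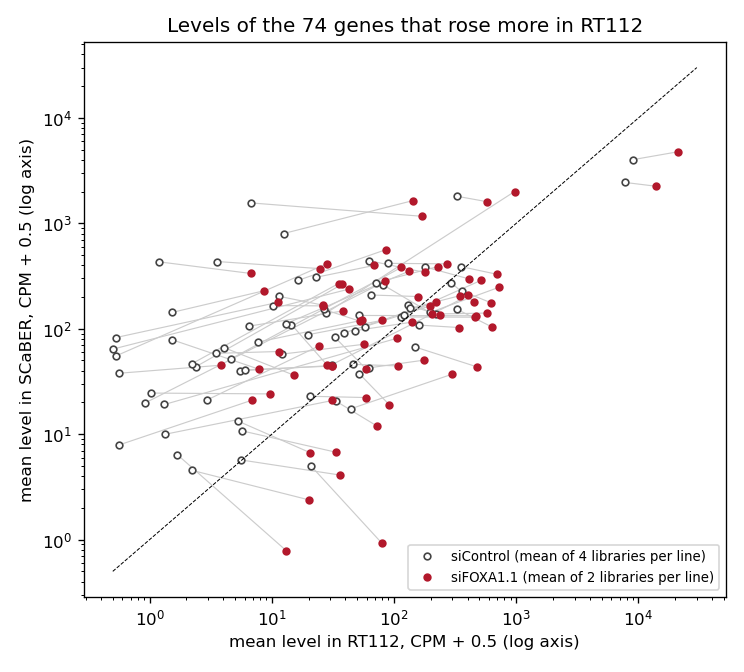
Mean level in RT112 (horizontal) and SCaBER (vertical), as CPM + 0.5 on log axes, of the 74 genes that rose more in RT112; open points are siControl, filled points siFOXA1.1, grey lines join the same gene and the dashed line marks equal level. In the controls 59 of the 74 genes lie above the line, and 38 do so under siFOXA1.1.

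Genes that fell in RT112 and did not pass the test in SCaBER formed the largest class. The 10 largest negative differences among measurable genes were LINC01285, RFXAP, FHL3, B3GNT7, NEIL3, OGFRL1, NMT2, FAM20C, MANCR and LY6K, and 9 of them had no count in either RT112 siFOXA1.1 library. FHL3, a LIM domain protein, was at 5.91, 6.89, 13.8 and 8.25 CPM in RT112 controls and at 0 in both siFOXA1.1 libraries. Levels in SCaBER were 31.5, 23.3, 30.5 and 29.6 CPM in controls and 11.7 and 26.8 CPM under siFOXA1.1. It was at least 18.0-fold lower in RT112 against the floor of 3 counts per library, and the groups overlapped in SCaBER (-0.57 ± 0.42; adjusted p of the difference 0.0028).

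The bound was 27.1-fold for FAM20C, a kinase of secreted proteins, which also fell in SCaBER by 2.51 on the log2 scale (from 64.3 to 10.9 CPM). LY6K fell in SCaBER too, and LINC01285 rose there. The bound was 11.9-fold for NEIL3, a DNA repair glycosylase, 10.9-fold for LY6K, 9.89-fold for B3GNT7, 8.71-fold for RFXAP, 8.59-fold for the long non-coding RNA MANCR, 7.15-fold for OGFRL1 and 5.51-fold for LINC01285. NMT2, an N-myristoyltransferase, had 353 counts in RT112 controls and 1 under siFOXA1.1, a ratio of 153 (exact counting interval 27.3 to 6063), and averaged 32.8 and 35.0 CPM in SCaBER. All 10 were low genes in RT112, with control means of 2.66 to 13.1 CPM.

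At better measured genes the falls were smaller and tighter. PRKACB, a catalytic subunit of protein kinase A, was at 76.0, 82.2, 69.3 and 71.0 CPM in RT112 controls and at 8.59 and 10.8 CPM under siFOXA1.1. SCaBER held 24.0, 33.5, 28.9 and 21.9 CPM and then 23.7 and 40.3 CPM. The RT112 groups were far apart and the SCaBER groups overlapped (difference -3.19 ± 0.40, adjusted p = 0.000718). FERMT1, an integrin activator of epithelial cells, fell from 243 to 64.8 CPM in RT112 and averaged 504 and 453 CPM in SCaBER (difference -1.76 ± 0.23, adjusted p = 0.000735). The adhesion molecule gene AMIGO2 (199 to 45.8 CPM, difference -1.86 ± 0.27, adjusted p = 0.00219) and the transcriptional repressor gene HIC2 (251 to 73.9 CPM, difference -1.86 ± 0.26, adjusted p = 0.00185) fell in the same way.

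Of 35 epithelial junction genes tested, 10 rose and 4 fell in RT112, and 5 rose in SCaBER. Over all genes, 8.97% rose and 9.46% fell in RT112, and 4.30% rose in SCaBER. In the list 3 differed (8.57%, against 1.86% of all genes): DSP and CGN below and TJP1 above. DSP, the desmosomal plaque protein desmoplakin, was at 366, 369, 484 and 438 CPM in RT112 controls and at 146 and 126 CPM under siFOXA1.1, and it was at 941, 616, 788 and 514 CPM and then 871 and 625 CPM in SCaBER. The RT112 groups were separate and the SCaBER groups overlapped (difference -1.67 ± 0.29, adjusted p = 0.00655). DSC3, a desmosomal cadherin of basal epithelium, fell by 1.92 on the log2 scale in RT112 and was at 0.11 in SCaBER (adjusted p of the difference 0.0129). DDIT4, a stress-induced inhibitor of mTOR signalling, was at 438, 296, 554 and 413 CPM in RT112 controls and at 114 and 44.2 CPM under siFOXA1.1, and stayed between 60.6 and 100 CPM in all 6 SCaBER libraries (difference -2.44 ± 0.41, adjusted p = 0.00609). The tight junction scaffold gene TJP1 differed upwards, rising by 1.02 in RT112 (adjusted p of the difference 0.0473), a call lost under 10 of 24 alternatives.

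Both lines passed the threshold with opposite signs at 19 genes, 11 with a fall in RT112 and a rise in SCaBER. Of these 11, 9 were measurable in both lines, as were 7 of the 8 with the reverse. CGN, the tight junction protein cingulin, was at 37.9, 37.8, 23.4 and 30.2 CPM in RT112 controls and at 9.97 and 9.81 CPM under siFOXA1.1, and at 54.5, 49.1, 40.0 and 34.3 CPM and then 89.1 and 66.3 CPM in SCaBER. The groups did not overlap in either line. CGN fell by 1.69 on the log2 scale in RT112 and rose by 0.82 in SCaBER (difference -2.51 ± 0.36, adjusted p = 0.00203). HCAR2, a receptor for hydroxycarboxylic acids, was at 54.2, 60.5, 49.3 and 46.2 CPM and then 19.3 and 20.6 CPM in RT112, and at 37.2, 21.8, 24.7 and 19.5 CPM and then 57.8 and 63.8 CPM in SCaBER (difference -2.64 ± 0.38, adjusted p = 0.00203). IGFBP6, a binding protein of insulin-like growth factors, fell from 9.55 to 3.34 CPM in RT112 and rose from 112 to 228 CPM in SCaBER (difference -2.51 ± 0.49, adjusted p = 0.0153).

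INHBA, the activin A subunit, belonged to the same class: it fell by 1.2 in RT112 and rose by 1.02 in SCaBER (difference -2.22 ± 0.38, adjusted p = 0.00655). Its SCaBER controls were at 336 and 497 CPM with siControl.1 and at 69.2 and 107 CPM with siControl.2, beside 308 and 465 CPM under siFOXA1.1. The siFOXA1.1 libraries lay above siControl.2 and not above siControl.1, and the call of the difference was lost with siControl.1 as the control, with controls pooled and on log2(TPM + 1). FSTL3, an activin-binding antagonist, rose in SCaBER by 2.83 ± 0.42 and was at -1.13 ± 0.43 in RT112 (adjusted p of the difference 0.00312). It lost its call with siControl.1 alone and with controls pooled. These were the 2 of 32 TGF-beta and activin genes that differed (6.25%, against 1.86% of all genes). ACSL3, a fatty acid activating enzyme, fell by 0.58 in RT112 and rose by 0.55 in SCaBER (adjusted p of the difference 0.0165).

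TM4SF1, a tetraspanin-like surface protein, rose in RT112 and fell in SCaBER. It was at 60.5, 42.7, 127 and 95.3 CPM in RT112 controls and at 180 and 231 CPM under siFOXA1.1, and at 172, 249, 277 and 337 CPM and then 133 and 143 CPM in SCaBER. The difference was 2.32 ± 0.30 (adjusted p = 0.000735), with groups separate in both lines. NUAK1, a kinase of the AMPK family, rose from 14.0 to 27.6 CPM in RT112 and fell from 109 to 45.3 CPM in SCaBER (difference 2.32 ± 0.34, adjusted p = 0.00219). ABCC5, an export pump for cyclic nucleotides, was at 116, 134, 180 and 158 CPM and then 465 and 481 CPM in RT112, and at 54.0, 57.1, 82.1 and 74.2 CPM and then 40.9 and 45.4 CPM in SCaBER. It rose by 1.70 in RT112 and fell by 0.61 on the log2 scale in SCaBER (difference 2.31 ± 0.23, adjusted p = 6.72e-05).

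KLK6, a kallikrein protease of squamous epithelium on chromosome 19, rose from 20.4 to 78.8 CPM in RT112 and fell from 4.51 to 0.428 CPM in SCaBER (difference 5.05 ± 0.77, adjusted p = 0.00287). Its SCaBER siFOXA1.1 libraries held 0 and 6 counts, so this is no measured size. The fitted value ranged from 3.74 to 9.74 over the 24 alternatives. SEMA5A, a semaphorin, fell from 80.1 to 7.69 CPM in RT112 and averaged 0.268 and 1.96 CPM in SCaBER, near the floor and with overlapping groups (adjusted p of the difference 0.00201). AP001972.5, an unnamed locus whose reads were not checked for an overlapping gene, rose from 30.1 to 75.2 CPM in RT112 and had 48 counts in SCaBER controls and 0 under siFOXA1.1, a fall of at least 3.66-fold. PEG10 fell from 430 to 140 CPM in RT112, but in SCaBER it had no count in 5 of 6 libraries and 1.00 CPM in the other, so no SCaBER direction is read for it. SCNN1A, an epithelial sodium channel subunit, fell in both lines, by 2.26 on the log2 scale in RT112 and by at least 12.4-fold in SCaBER, where 177 control counts became 0. On log2(TPM + 1) its difference turned to -0.51 (adjusted p = 0.671 by limma).

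Interferon-induced effector genes rose in both lines, and among the 24 lists they held the largest share of members that differed. Of 65 tested, 40 rose in RT112 and 48 in SCaBER, where 8.97% and 4.30% of all genes rose. The lines differed at 15 (23.1%, against 1.86% of all genes). Of these, 9 had the larger rise in RT112, and 6 a change in RT112 below that in SCaBER. The median change of the 59 measurable members was 1.4 in RT112 and 1.60 in SCaBER, and the median difference was -0.31 (-0.01 without SCaBER siFOXA1.1 replicate 2). In CPM the larger gain can lie in SCaBER, as it did on average for IFI44, OAS2, IFI44L and IFIT3. The genes with the larger rise in RT112, on the log2 scale, were IFI27, IFI44, OAS2, IFI44L, RSAD2, IFIT3, DDX60, IFIT1 and IFI6. They were near absent or low in RT112 controls, from 0 to 27.4 CPM on average, and at 19.4 to 799 CPM in SCaBER controls. The 6 on the other side were MX1, OAS1, SAMD9, GBP2, MX2 and OAS3. The 9 and 6 became 15 and 8 with the replicate block, 9 and 2 with siControl.1 alone, 5 and 6 with siControl.2 alone, 14 and 8 with DESeq2, and 2 and 5 on log2(TPM + 1). Without RT112 siControl.2 replicate 2 they were 15 and 5, and without SCaBER siFOXA1.1 replicate 2 they were 14 and 6.

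Many of these genes share a string in their promoters. In RefSeq promoter windows (GRCh38.p14), the core of the interferon-stimulated response element, searched as GAAA, any 2 bases and GAAA on both strands in the 250 bases before the start, was found in 3.02% of 35116 windows. A gene with several windows was counted as holding the string if any window did, which held for 3.29% of 10227 matched genes among those tested. It was found at 8 of 8 matched genes with the larger rise in RT112, at 3 of 4 matched genes with the change in RT112 below that in SCaBER, and at 20 of 37 matched effectors that did not differ. GBP2, MX2 and OAS2 were not matched. The 150 bases before an annotated start are printed below for IFI27 (chr14:94110586-94110735) and IFIT3 (chr10:89332379-89332528), which rose more in RT112, and for OAS1 (chr12:112906812-112906961) and OAS3 (chr12:112938324-112938473), which rose more in SCaBER, all on the plus strand, with matches in capitals. IFI27 and IFIT3 have 2 annotated windows each, of which the one with more matches in these bases is shown, and it lies inside the gene's annotated span. A match is a string of letters, not a measured site, and the windows without one say only that this string is not there. OAS1 was the matched gene with the change in RT112 below that in SCaBER that lacked it. Its window holds GAAACGAAA near its end, a spacer shorter than the 2 bases of the search, so no difference between the groups of genes is read from these counts.
IFI27: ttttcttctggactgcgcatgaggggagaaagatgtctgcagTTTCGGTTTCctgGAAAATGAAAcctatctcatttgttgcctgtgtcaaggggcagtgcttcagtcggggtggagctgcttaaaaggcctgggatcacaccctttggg
IFIT3: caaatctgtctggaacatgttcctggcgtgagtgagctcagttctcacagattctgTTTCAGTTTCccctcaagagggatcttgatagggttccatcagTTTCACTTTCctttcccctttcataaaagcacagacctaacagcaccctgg
OAS1: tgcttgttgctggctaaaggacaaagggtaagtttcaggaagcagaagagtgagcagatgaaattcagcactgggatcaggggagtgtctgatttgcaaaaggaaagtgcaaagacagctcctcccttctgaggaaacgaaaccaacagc
OAS3: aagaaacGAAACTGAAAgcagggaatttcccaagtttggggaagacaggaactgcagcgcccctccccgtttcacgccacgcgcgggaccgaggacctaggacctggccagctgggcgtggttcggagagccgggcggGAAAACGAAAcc

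IFIT3, an antiviral RNA-binding protein, had the lowest p of the difference in the list. It was at 11.9, 11.0, 10.5 and 14.4 CPM in RT112 controls and at 136 and 149 CPM under siFOXA1.1, and at 993, 964, 626 and 614 CPM and then 1466 and 1822 CPM in SCaBER. The groups were separate in both lines. IFIT3 rose by 3.58 ± 0.16 in RT112 and by 1.08 ± 0.14 in SCaBER (difference 2.50, 95% interval 2.03 to 2.97, adjusted p = 2.37e-05), yet RT112 under siFOXA1.1 remained below every SCaBER control library.

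IFI27, a mitochondrial protein much used as an interferon marker, had no count in any of the 4 RT112 control libraries and was at 65.4 and 18.7 CPM under siFOXA1.1, at least 91.5-fold higher. SCaBER had 53.7, 115, 40.8 and 44.8 CPM in controls and 58.4 and 415 CPM under siFOXA1.1. The SCaBER groups overlapped, with replicate 1 of siFOXA1.1 within the range of the controls, although the fit called a rise (1.98 ± 0.55, adjusted p = 0.0393). The adjusted p of the difference was 0.0153, and the call was lost with siControl.2 alone and on log2(TPM + 1).

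OAS2 and IFI44 each had 1 count over the 4 RT112 control libraries. OAS2, which makes the oligoadenylates that activate RNase L, was at 28.5 and 27.0 CPM under siFOXA1.1 in RT112, a ratio of 816 with an exact counting interval of 146 to 32332. In SCaBER it was at 105, 59.9, 29.2 and 25.7 CPM in controls and at 350 and 478 CPM under siFOXA1.1, a rise of 3.12 ± 0.23. The adjusted p of the difference was 0.000363, and on log2(TPM + 1), which shrinks changes of low genes, the difference turned to -0.0048 (adjusted p = 0.997 by limma). IFI44 reached 8.90 and 12.7 CPM in RT112, a ratio of 316 (interval 55.8 to 12568), and went from 82.1 to 178 CPM in SCaBER (adjusted p of the difference 9.66e-05). Its neighbour on chromosome 1, IFI44L, rose from 0.423 to 84.2 CPM in RT112 and from 19.4 to 281 CPM in SCaBER (difference 3.68 ± 0.57, adjusted p = 0.00304).

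OAS1 and OAS3 lie beside OAS2 on chromosome 12 (OAS1 at 112906962-112933219, OAS3 at 112938474-112973251 and OAS2 at 112978519-113011723, GRCh38.p14), yet differed in the other direction. OAS1 was at 59, 70.9, 62 and 76.9 CPM in RT112 controls and at 86.2 and 72.7 CPM under siFOXA1.1. In SCaBER it was at 19.9, 35.2, 11.3 and 9.87 CPM in controls and at 87.7 and 185 CPM under siFOXA1.1. The RT112 groups overlapped and the SCaBER groups did not, and OAS1 started higher in RT112 (difference -2.75 ± 0.42, adjusted p = 0.00274). OAS3 rose in SCaBER by 1.76 ± 0.17 and was at 0.43 ± 0.18 in RT112 (difference -1.32 ± 0.25, adjusted p = 0.0126).

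MX1, a dynamin-like antiviral GTPase, was at 4.33, 5.05, 5.06 and 7.72 CPM in RT112 controls and at 2.61 and 12.7 CPM under siFOXA1.1, and at 112, 49.3, 53.7 and 85.4 CPM and then 671 and 834 CPM in SCaBER. It rose in SCaBER with separate groups, and its RT112 groups overlapped (difference -2.85 ± 0.60, adjusted p = 0.0224). MX2, its neighbour on chromosome 21, rose in both lines, from 13.0 to 73.8 CPM in RT112 and from 8.45 to 162 CPM in SCaBER (difference -1.60 ± 0.37, adjusted p = 0.0346). GBP2, a guanylate-binding protein, was at 142 and 125 CPM in RT112 and rose from 28.3 to 90.9 CPM in SCaBER (difference -1.87 ± 0.31, adjusted p = 0.00462). SAMD9, an antiviral restriction factor, fell by 1.46 ± 0.25 in RT112 and was at 0.68 ± 0.22 in SCaBER (difference -2.15 ± 0.33, adjusted p = 0.00304).

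**Figure D4:**
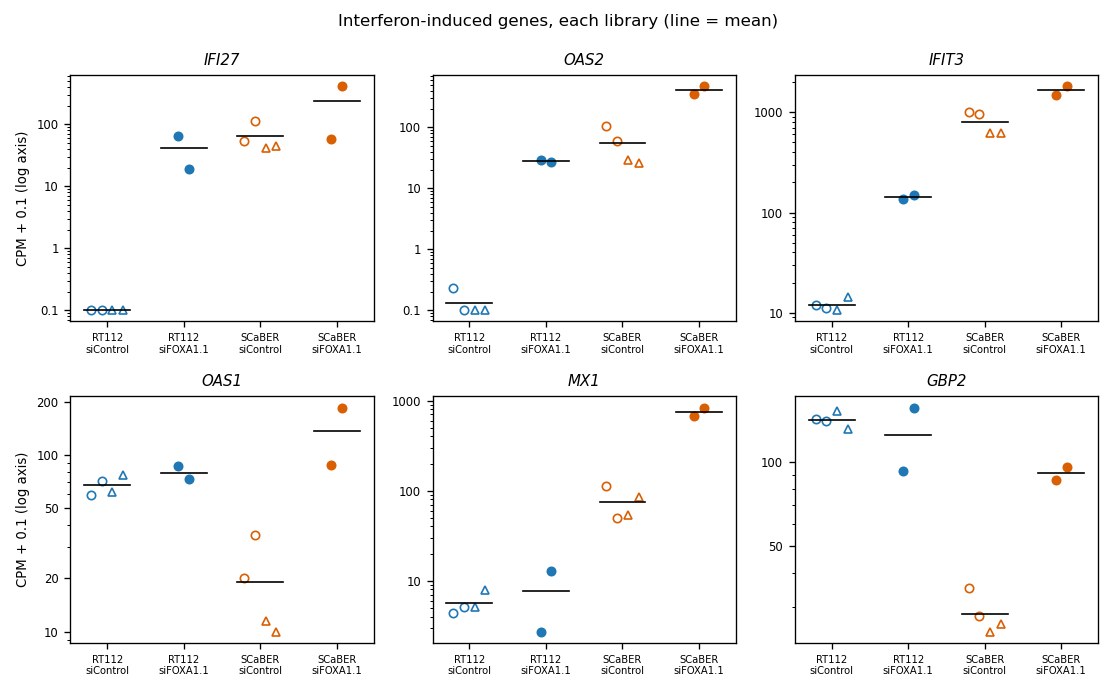
Level of 6 interferon-induced genes in each of the 12 libraries, as CPM + 0.1 on a log axis, for siControl (open; circles siControl.1, triangles siControl.2) and siFOXA1.1 (filled) in RT112 (blue) and SCaBER (orange), with the horizontal line at the mean. IFI27 and OAS2 lay at 0 to 0.131 CPM in RT112 controls and at 18.7 CPM or more under siFOXA1.1, whereas OAS1, MX1 and GBP2 overlapped between the RT112 groups and rose in SCaBER.

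The study also followed genes that transmit the interferon signal or respond to it. IRF9, the DNA-binding subunit of the interferon-stimulated complex, was at 1.31, 0.459, 1.43 and 1.33 CPM in RT112 controls and at 17.0 and 26.1 CPM under siFOXA1.1, and at 7.08, 1.65, 3.67 and 3.65 CPM and then 14.2 and 12.1 CPM in SCaBER. It rose in RT112 (4.25 ± 0.62) and missed the threshold in SCaBER (1.72 ± 0.59, adjusted p = 0.0907), but the difference of 2.53 (95% interval 0.65 to 4.41) did not pass (adjusted p = 0.18). STAT2, its partner, rose by 1.74 in RT112 and 2.54 in SCaBER, with a difference of -0.81 (interval -1.71 to 0.10, adjusted p = 0.418). CD274, the checkpoint ligand PD-L1, rose by 3.34 and 2.82, with a difference of 0.52 (interval -1.20 to 2.24, adjusted p = 0.907). ZBED2, a zinc finger transcription factor that the study followed, passed in neither line (-0.29 in each, adjusted p = 0.662 in RT112 and 0.729 in SCaBER by edgeR), and the interval of the difference was -1.20 to 1.21. Its controls disagreed: they were at 5.78 and 7.81 CPM with siControl.1 and at 15.2 and 25.7 CPM with siControl.2 in RT112, beside 12.0 and 7.24 CPM under siFOXA1.1. In SCaBER they were at 56.7 and 64.3 CPM with siControl.1 and at 17.9 and 15.2 CPM with siControl.2, beside 32.1 and 19.7 CPM under siFOXA1.1. None of the 17 genes of class I antigen presentation tested differed, but with 1.86% of all genes called nothing is read from this. ISG15, a ubiquitin-like effector, rose in both lines, by 2.38 in RT112 and 2.25 in SCaBER, with an interval of the difference of -0.38 to 0.62.

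Genes of G2 and mitosis fell in both lines and further in RT112. Of 66 tested, 62 fell in RT112 and 53 in SCaBER, where 9.46% and 3.86% of all genes fell. The lines differed at 11, all with the larger fall in RT112 (16.7%, against 1.16% of all genes in that direction). The median change was -2.43 in RT112 and -1.33 in SCaBER, and the median difference was -0.96, with 59 of the 66 below 0 (52.3% of all measurable genes were). Within batch replicate 1 and 2 the median difference was -0.86 and -1.16. The 11 became 21 with the replicate block, 24 with DESeq2, 6 with siControl.1 alone, 27 without SCaBER siFOXA1.1 replicate 2, 22 without RT112 siFOXA1.1 replicate 1 and 17 without SCaBER siControl.1 replicate 1.

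AURKA, the kinase of spindle poles, was at 295, 350, 303 and 267 CPM in RT112 controls and at 54.9 and 46.3 CPM under siFOXA1.1, and at 207, 193, 208 and 256 CPM and then 162 and 92.0 CPM in SCaBER. The groups were separate in both lines and the gap was wider in RT112 (difference -1.82 ± 0.30, adjusted p = 0.00427). NCAPG, a condensin subunit, fell by 2.84 in RT112 and 1.29 in SCaBER on the log2 scale (difference -1.56 ± 0.25, adjusted p = 0.00427). CDK1, the mitotic kinase, fell from 205 to 26.7 CPM and from 159 to 79.9 CPM (difference -1.94 ± 0.38, adjusted p = 0.0171), and the spindle checkpoint kinase gene BUB1 from 32.7 to 3.44 CPM and from 70.1 to 30.4 CPM (difference -2.02 ± 0.40, adjusted p = 0.0168). TPX2, a spindle assembly factor, and CCNA2, cyclin A2, had differences of -1.30 ± 0.24 (adjusted p = 0.0113) and -2.46 ± 0.49 (adjusted p = 0.0175). AURKA and NCAPG were called under each of 24 alternatives.

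Late cell cycle promoters often hold the cell cycle genes homology region, TTTGAA, and CCAAT boxes. On either strand of the 250 bases before the start, TTTGAA was found at 31 of 56 matched G2 and mitosis genes (55.4%) and CCAAT at 42 (75.0%), against 13.3% and 32.0% of all windows and 11.8% and 41.7% of 10227 matched genes among those tested. The genes that differed between the lines held them at 3 and 5 of 9, and those that did not differ at 28 and 37 of 47. The CDK1 window (chr10:60778328-60778477, plus strand) is shown with both strings in capitals, CCAAT being read there as its reverse complement. It is the one of 2 annotated CDK1 windows with more matches.
CDK1: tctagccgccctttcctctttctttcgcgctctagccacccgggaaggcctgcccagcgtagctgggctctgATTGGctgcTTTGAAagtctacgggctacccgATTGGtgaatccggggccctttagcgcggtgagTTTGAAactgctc

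**Figure D5:**
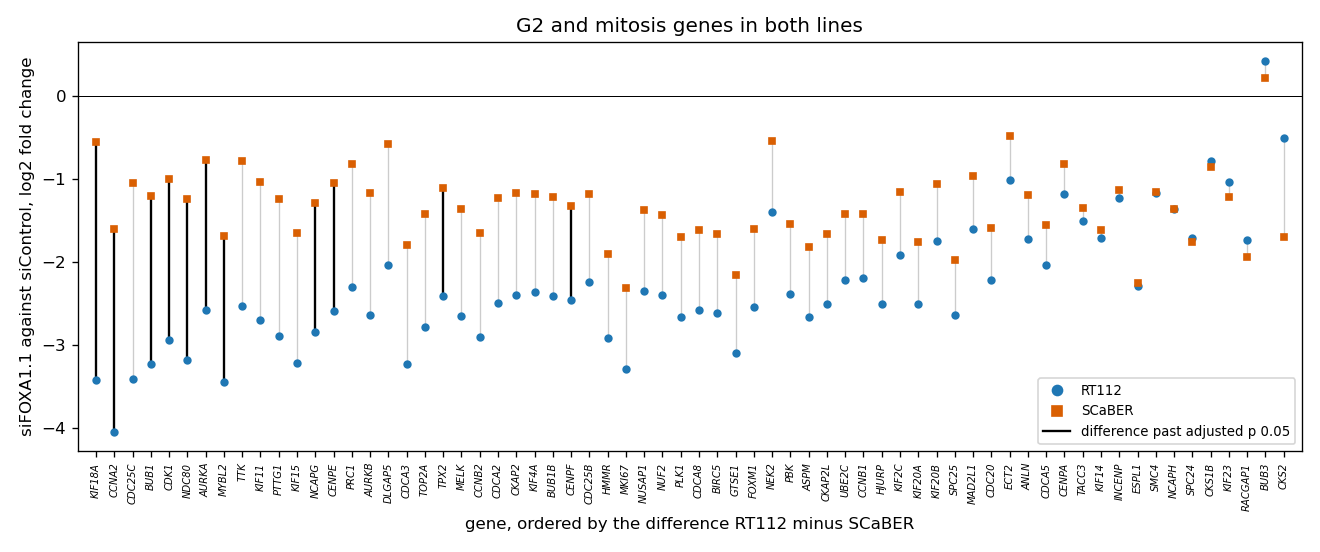
Log2 fold change of siFOXA1.1 against siControl in RT112 (blue circles) and SCaBER (orange squares) for each of the 66 G2 and mitosis genes, ordered by the difference between the lines, with black bars where the difference passed an adjusted p of 0.05. In 59 of the 66 genes the RT112 point lies below the SCaBER point, and 11 of these differences passed the test.

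Genes of S phase fell in both lines, 44 of 57 in RT112 and 34 in SCaBER, where 9.46% and 3.86% of all genes fell. Of the 57, 1 differed (1.75%, against 1.86% of all genes). This was DSCC1, a subunit of the clamp loader for sister chromatid cohesion, which fell from 27.5 to 3.13 CPM in RT112 and averaged 22.4 and 16.4 CPM in SCaBER (difference -2.67 ± 0.49, adjusted p = 0.0101). Of 35 MYC and ribosome biogenesis targets tested, 15 fell in RT112 and 9 in SCaBER, beside the same 9.46% and 3.86% of all genes. None differed, but with 1.86% of all genes called nothing is read from this in a list so short. The median difference was -0.06.

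Lipid synthesis genes leaned to SCaBER. Of 33 cholesterol and fatty acid synthesis genes, 14 rose in SCaBER and 6 in RT112, where 4.30% and 8.97% of all genes rose. The lines differed at 5 (15.2%, against 1.86% of all genes), 4 of them below. The median difference was -0.48, with 25 of 31 measurable members below 0 (52.3% of all measurable genes were). FASN, fatty acid synthase, was at 513, 469, 464 and 368 CPM in RT112 controls and at 179 and 211 CPM under siFOXA1.1, and at 237, 137, 302 and 245 CPM and then 460 and 284 CPM in SCaBER. It fell in RT112 by 1.22 on the log2 scale, and its rise of 0.72 in SCaBER, where groups overlapped, missed the threshold (adjusted p = 0.0528). The difference passed (-1.93 ± 0.32, adjusted p = 0.00462). SCD, the stearoyl-CoA desaturase, rose in SCaBER by 0.73 and was at -0.52 in RT112 (adjusted p of the difference 0.0217). FDPS, farnesyl diphosphate synthase, rose in SCaBER by 1.49 and was at 0.37 in RT112 (adjusted p of the difference 0.0338). The call was lost under 5 of 24 alternatives for SCD and 6 for FDPS, for both with controls pooled and with siControl.1 alone. FADS1, a fatty acid desaturase, fell in both lines and further in RT112 (-3.72 against -1.86, adjusted p of the difference 0.0128). STARD4, a sterol carrier, was absent from RT112 controls and at 1.07 and 4.18 CPM under siFOXA1.1, at least 5.72-fold higher (adjusted p of the difference 0.0227, with the difference at -0.32 and adjusted p = 0.788 by limma on log2(TPM + 1)).

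Lineage genes that differed were few in number. They made up 6.06% of luminal and urothelial markers, 5% of basal and squamous markers and 7.14% of basal transcription factors. Of all genes 1.86% differed, and over all genes 9.46% fell in RT112 and 3.86% in SCaBER. None of 23 luminal transcription factors tested differed: 5 fell in RT112 and 2 in SCaBER, and the median difference of 18 measurable members was -0.42, with 0.13 within batch replicate 1 and -0.42 within replicate 2. Of 33 luminal and urothelial markers, 14 fell in RT112 and 4 in SCaBER, and SCNN1A and PSCA differed. PSCA, a surface antigen of urothelium, was at 263, 307, 101 and 74.2 CPM in RT112 controls and at 19.9 and 17.5 CPM under siFOXA1.1. In SCaBER it was listed at 0 in 4 of 6 libraries and at no more than 2.00 CPM in the others, so its difference (adjusted p = 0.0276) rests on RT112, and the call was lost under 7 of 24 alternatives, DESeq2 among them.

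Of 40 basal and squamous markers, 6 rose and 6 fell in RT112, and 5 rose and 2 fell in SCaBER. Over all genes, 8.97% rose and 9.46% fell in RT112, and 4.30% rose and 3.86% fell in SCaBER. In the list 2 differed, DSC3 and KRT17 (5%, against 1.86% of all genes). KRT17, a basal keratin with near-identical pseudogenes, was at 453, 499, 565 and 467 CPM in RT112 controls and at 414 and 481 CPM under siFOXA1.1, and at 1766, 1158, 1184 and 1093 CPM and then 3925 and 2925 CPM in SCaBER. It rose in SCaBER and overlapped in RT112 (difference -1.56 ± 0.25, adjusted p = 0.00318). Among 14 basal transcription factors the 1 that differed was the early growth response gene EGR1, at 0.131, 0.153, 3.12 and 0.666 CPM and then 1.07 and 13.7 CPM in RT112, where the groups overlapped, and at 56.2, 85.3, 66.0 and 106 CPM and then 58.6 and 23.0 CPM in SCaBER (adjusted p of the difference 0.0323, lost under 5 of 24 alternatives, among them without RT112 siFOXA1.1 replicate 2).

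Growth factor and ERK feedback genes that differed were EGR1, AREG and SPRY1, 3 of 35 and all above (8.57%, against 0.699% of all genes in that direction). AREG, the EGFR ligand amphiregulin, was at 3.55, 2.91, 14.1 and 22.9 CPM in RT112 controls and at 28.5 and 23.2 CPM under siFOXA1.1, close to the second siControl.2 library, and averaged 203 and 167 CPM in SCaBER. The difference was 2.01 ± 0.35 (adjusted p = 0.00655), and the call was lost under 4 of 24 alternatives, siControl.2 alone among them. SPRY1, an ERK feedback inhibitor, rose from 1.18 to 12.6 CPM in RT112 and was at 5.91 and 0.286 CPM in SCaBER (adjusted p of the difference 0.034). RASGRF1, a Ras exchange factor, fell from 11.3 to 0.506 CPM in SCaBER and was at 2.13 and 3.87 CPM in RT112 (difference 5.30 ± 1.13, adjusted p = 0.0234). Its SCaBER siFOXA1.1 libraries held 3 counts each, at the floor, so this is no measured size.

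Of 15 mitochondrially encoded genes, 14 rose in RT112 and 2 in SCaBER, where 8.97% and 4.30% of all genes rose. MT-CYB and MT-ND2 differed (13.3%, against 1.86% of all genes), both subunits of respiratory complexes (differences 0.97 ± 0.18 and 0.98 ± 0.19, adjusted p = 0.0126 and 0.0161). None of 32 endoplasmic reticulum stress genes or of 16 genes of the RNA interference machinery differed, with median differences of -0.04 and -0.07. With 1.86% of all genes called, nothing is read from the absence of calls in lists so short. The largest falls common to both lines, with the 95% interval of the difference within 1 log2 unit of 0, were CHCHD10, a mitochondrial cristae protein (-3.62 and -3.63), SLC25A10, a mitochondrial dicarboxylate carrier (-2.96 and -2.98), and the histone gene HIST1H4C (-2.25 and -2.13), whose transcripts carry no poly(A) tail in their usual form. PRSS8, an epithelial protease, was among the largest common rises (1.96 and 1.72).

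Across the 24 alternatives that give the difference between the lines, 40 of the 276 genes were called with the same sign in every one, 16 above and 24 below. Beside those named above (KRT81, MAP2, CLU, SAT1, BIRC3, TGFBI, IFIT3, IFI44, ABCC5, TM4SF1, NUAK1, CGN, HCAR2, SEMA5A, FHL3, PRKACB, FERMT1, AMIGO2, HIC2, DDIT4, DSCC1, AURKA, NCAPG, GBP2 and KRT17), they included TOX2, a nuclear factor that fell in SCaBER (difference 2.04 ± 0.26), FAM83A, an EGFR pathway protein that fell in RT112 and rose in SCaBER (-1.67 ± 0.22), and TXNIP, the thioredoxin inhibitor, which fell in RT112 from 544 to 225 CPM (-1.87 ± 0.29).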

How the data were processed

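The authors deposited raw counts and TPM values, the latter a length-scaled unit made by the authors, for 58721 genes. Per the deposited configuration, single-end reads were trimmed with TrimGalore 0.6.2 (minimum quality 20, minimum length 10), mapped with STAR 2.6.1a (hg38), which also gave the gene counts on GENCODE release 29, whereas the methods of the study name hg19. Counts of 12 libraries were fitted in edgeR 4.0.16 (R 4.3.3) with 1 mean for each of 6 groups, TMM factors, filterByExpr and the quasi-likelihood F test, with Benjamini-Hochberg adjustment over 14878 genes and a threshold of 0.05. The common biological coefficient of variation was 0.407. Alternatives used DESeq2 1.42.0 and limma 3.58.1 on log2 TPM. The script was tested on simulated data.

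The labels call the replicate numbers experiment batch replicates. Same-numbered deviations correlated at -0.0024 to 0.0018 in RT112 and at -0.0027 to 0.26 in SCaBER, so the pairing rests on the labels. The blocked values stand beside the results they change.

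Genes were named by rule: those the study followed, the 10 largest differences each way among measurable genes, the 10 largest in opposite directions, up to 5 members of each of 24 lists, and common changes. Some genes picked by the rule are not reported here. The comparison, lists and rule were chosen with earlier results of these data known. Promoters are from RefSeq.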

Additional observations from a re-analysis of the deposited data

Results flagged for a closer look

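The response to siFOXA1.1 differed between the lines, by the test of the difference itself, at 276 genes. Among these, 19 genes passed the threshold in both lines with opposite signs, and the 10 with the largest absolute difference are given here as log2 change in RT112 minus log2 change in SCaBER. The differences were -2.64 for HCAR2, -2.51 for IGFBP6, -2.51 for CGN, 2.32 for TM4SF1 and 2.32 for NUAK1. The fitted differences of -10.88 for LINC01285, 8.02 for AP001972.5, -7.62 for SEMA5A, -6.54 for PEG10 and 5.05 for KLK6 rest on an arm at or near 0 counts and are no measured size. A check for outlying libraries was not made, since each siRNA has 2 libraries per line.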

How the results depend on the processing

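The count of 276 genes was 668 with DESeq2, 638 with no filter on low counts, 535 with the replicate block, 169 with controls pooled into 1 group, 137 with siControl.1 alone and 148 with siControl.2 alone, and between 217 and 779 when 1 library was left out. Among genes measurable in both lines (250) it was 584, 535, 482, 153, 125 and 138 in the same order, and between 187 and 710. The number changed in RT112 (2743) ranged from 1620 without RT112 siFOXA1.1 replicate 2 to 3449 when 1 library was left out, and was 3778 with each line fitted alone. That in SCaBER (1214) was 738 with siControl.1 alone and 756 with each line fitted alone. The median difference of G2 and mitosis genes (-0.96) was -1.30 on log2(TPM + 0.1) and between -1.51 and -0.73 when 1 library was left out. The differences of STARD4 (-0.32), SCNN1A (-0.51) and OAS2 (-0.0048) reversed on log2(TPM + 1). The cause of these changes was not tested. Of the 276 genes, 272 kept their sign under all 24 alternatives, and of the 67 genes that the naming rule picked and the test called, 18 stayed past the threshold under all of them and 64 kept their direction. On log2(TPM + 1) 50 genes were above and 212 below, beside 104 and 172. With 2 libraries of each siRNA per line and genes near the floor of 3 counts in 1 line, depth limits the sizes of many differences.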
